A study of Mus musculus with 165 samples.

Results

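The step from 136h to 152h of macrophage differentiation was examined in PUER cells by comparing the 3 IL3-OHT 152h libraries with the 3 IL3-OHT 136h libraries, 6 libraries or 3.64% of the RNA-Seq libraries of the series. The libraries were chosen by their labels alone. PUER cells are a single mouse hematopoietic progenitor line, of bone marrow origin by the labels and of fetal liver origin by the study's text, that lacks endogenous PU.1 (*Spi1*-/-) and carries a PU.1 fusion with the hormone-binding part of the estrogen receptor, which 4-hydroxytamoxifen (OHT) switches on. Both groups received 5 ng/ml IL3 and 200 nM OHT and by their labels differed in the hours since OHT was added. The replicates of a time point came from wells of 1 culture plate. GCSF-OHT cells, which are driven toward neutrophils, were kept without IL3 in medium with 10 ng/ml GCSF, from the pre-treatment onward, and received 100 nM OHT. The GCSF comparison therefore differs in cytokine and OHT dose as well as in lineage. The GCSF-OHT samples of 136h (3 libraries) and 152h (2 libraries) were used to ask whether the step was shared. Both cultures were fed at 40h, 88h and 136h, when part of the medium was exchanged and OHT was given anew, and the sources used here do not state whether the 136h cells were collected before or after this renewal. The 152h cells were collected 16 h after it.

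Macrophages arise from progenitors that pass through a monocyte-like state. They are known for phagocytosis, for lysosomes that digest what was taken up, for Toll-like receptors that detect microbial molecules, and for an actin cytoskeleton that drives migration and adhesion. Neutrophils, the sister lineage, make granule proteases and peroxidases such as *Mpo* and *Elane* early and store them. Cells that grow in culture also tune sterol synthesis, amino acid supply and iron uptake through separate regulatory programs, in which SREBP2, ATF4 and the iron-responsive RNA-binding proteins, respectively, are central.

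The 6 libraries held 20235615 to 23159126 reads assigned to genes. The deposited values were normalized counts, and 3 reads correspond to 3.37 to 3.83 normalized counts, which covers counting error only. Replicates correlated at 0.984 or more over genes (Pearson's *r*, log2 values), and libraries of different groups at 0.979 or less. Mitochondrially encoded genes took 0.90% to 1.07% of reads at 136h and 1.35% to 1.60% at 152h, and normalized totals were 26824381 to 27104998 at 136h and 24463498 to 24720904 at 152h. The part of either shift in the results was not tested. The library numbers in the labels rise with time in this part of the course except that those of 144h come before those of 136h in both cultures. The sources used here do not settle whether this is an order of preparation or an exchange of the 136h and 144h labels, which would change every 136h value, and the step with the 144h libraries in place of 136h is given further on.

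*Spi1*, the PU.1 gene, was counted at 5042, 4482 and 4847 at 136h and 4687, 5078 and 4648 at 152h. *Esr1*, the estrogen receptor gene, was counted at 1333, 1128 and 1278 at 136h and 1937, 2067 and 2018 at 152h and was higher at 152h in every library (log2 fold change 0.69 ± 0.057 (SE), adjusted p = 2.0e-20). Whether reads of the fusion were counted under *Spi1* or *Esr1* is not given in the sources used here. On the list of monocyte and macrophage markers the integrin gene *Itgam*, the lipase gene *Lpl* and the co-receptor gene *Cd14* averaged 7103, 22623 and 4393 at 136h, whereas *Maf*, *C1qa* and *C1qb* were at 0 in all 6 libraries and *Csf1r* averaged 6.89 at 136h and 12.1 at 152h. The neutrophil granule and membrane genes, a list that also holds receptor and transcription factor genes, were also abundant. Their summed level was 408155 to 424585 at 136h and 347970 to 371178 at 152h, against 137009 to 142953 and 156160 to 157530 for the monocyte and macrophage markers. Markers of several other lineages were low. The 9 erythroid markers summed to 47.3 to 94.3 and the 10 mast cell and basophil markers to 52.7 to 93.9 over both groups, with *Hba-a1*, *Hbb-bs* and *Fcer1a* at 0 throughout, and the 11 lymphoid markers summed to 4.49 to 18.1 with *Cd3e* at 0. The 7 dendritic cell markers summed to 7.66 to 17.97, with *Siglech* at 0. The 7 megakaryocyte and platelet markers summed to 981 to 1162 at 136h and 1770.0 to 1981 at 152h, and most of that sum was *Vwf*, the von Willebrand factor gene, at 792.7, 773.7 and 923.4 at 136h and 1519, 1739.7 and 1623 at 152h (log2 fold change 0.97 ± 0.12 (SE), adjusted p = 1.6e-12).

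Gene expression changed broadly over the step. With the thresholds set to 0.05 for the adjusted p and 0.58 for the absolute log2 fold change, 2781 of 17414 tested genes (16.0%) were differentially expressed genes (DEGs): 1605 were higher (9.22%) and 1176 were lower (6.75%) at 152h, and the median log2 fold change of all genes was 0. The steps on either side cover fewer hours than this one and share its 136h or its 152h libraries. They had fewer calls, with 305 DEGs at 136h against 128h (1.75%, of which 0.815% higher and 0.936% lower) and 324 at 160h against 152h (1.86%, of which 0.861% higher and 0.999% lower). Among genes with a mean of 50 or more in the 6 libraries, 1071 rose and 885 fell, and 1945 of these 1956 were also called when only the 6 libraries were fitted. Below a mean of 10, 429 genes were called but only 124 were called in the fit of the 6 libraries, so calls of genes at such levels are uncertain.

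**Figure D1:**
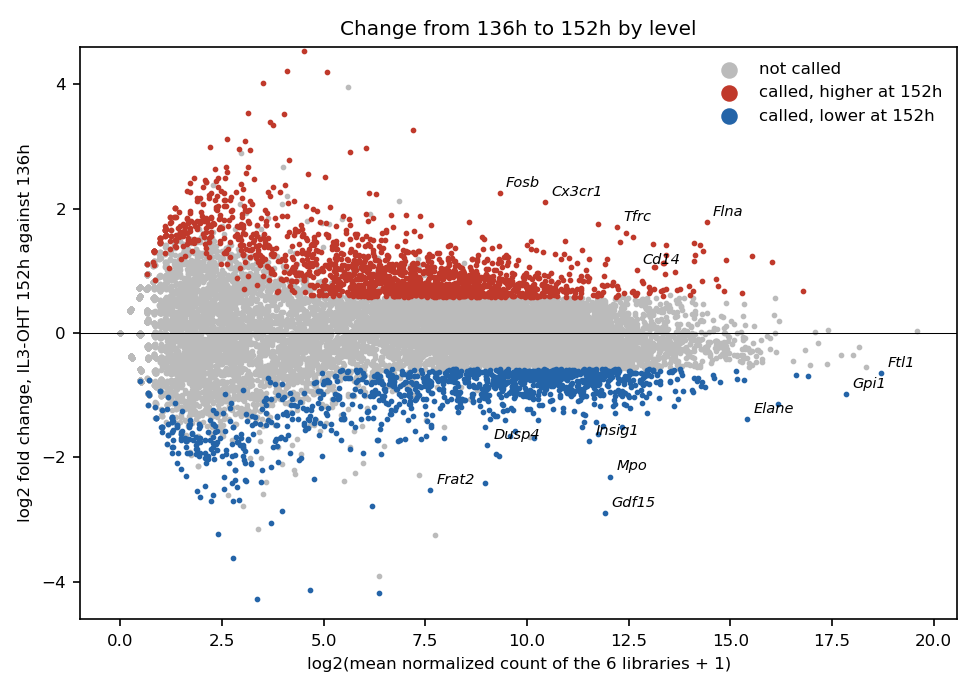
Log2 fold change from IL3-OHT 136h to 152h (vertical axis) against the mean level over the 6 libraries on a log2 scale (horizontal axis); each point is a tested gene, red or blue where called, and 3 of 17414 genes lie outside the axis. Called genes lie on both sides of 0 at low and at high levels, with *Flna* (1.79) and *Gdf15* (-2.90) far from 0 among abundant genes.

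*Flna*, *Cx3cr1* and *Fosb* were among the 15 largest rises of genes with a mean of at least 50 in the higher group and no overlap between the groups. *Flna*, which encodes the actin cross-linker filamin A (chrX:74223461-74249820, GRCm38), was at 10134, 9335 and 10146 at 136h and 33051, 34964 and 34167 at 152h. Its log2 fold change was 1.79 ± 0.061 (SE), adjusted p = 7.9e-51. *Cx3cr1*, the fractalkine receptor of monocytes (chr9:119901616-120069879), was at 538.7, 512.1 and 512.6 at 136h and 2078, 2356 and 2320.1 at 152h (log2 fold change 2.11 ± 0.071 (SE), adjusted p = 7.9e-51). The immediate-early factor gene *Fosb* was at 270.6, 201.8 and 198.97 at 136h and 1048, 1140.0 and 997.2 at 152h (log2 fold change 2.25 ± 0.18 (SE), adjusted p = 4.4e-21). *Rgs14*, a regulator of G protein signaling, was at 63.8, 62.3 and 81.9 at 136h and 217.1, 286.5 and 270.6 at 152h, and *Sema3c*, a secreted semaphorin, at 34.5, 41.1 and 49.2 at 136h and 168.5, 153.5 and 149.4 at 152h. Groups without overlap were a condition of choosing these 5 genes, not a result. The other 10 were *Nlrp1b*, *Commd1b*, *Adam1a*, *Cep164*, *Nup210l*, *Atp1b2*, *Milr1*, *Dnhd1*, *Ighv1-55* and *Zfp229*, whose log2 fold changes ran from 1.81 to 2.91. *Nlrp1b*, an inflammasome sensor that has close paralogs, was at 7.66, 15 and 10.5 at 136h and 76.9, 82.2 and 104.4 at 152h. *Commd1b* varied among replicates (5.11, 7.48 and 15.2 at 136h and 58.8, 68.9 and 35.9 at 152h, limma adjusted p = 0.034), and its call was lost when any of 4 of the 6 libraries was left out (log2 fold change 2.19 to 2.43).

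The 15 largest falls, chosen in the same way, were led by *Gdf15*. *Gdf15*, a secreted stress cytokine (chr8:70629393-70632456), was at 7400.0, 5988 and 7019.9 at 136h and 926.3, 930.9 and 865.8 at 152h (log2 fold change -2.90 ± 0.14 (SE), adjusted p = 6.7e-38). *Mpo*, the myeloperoxidase of primary granules (chr11:87793581-87804413), was at 7797, 6694 and 6697 at 136h and 1312, 1497 and 1462 at 152h (log2 fold change -2.31 ± 0.10 (SE), adjusted p = 4.2e-40). *Insig1*, which retains the SREBP machinery in the endoplasmic reticulum when sterols are plentiful, was at 5198, 4384 and 4092 at 136h and 1471, 1349 and 1267 at 152h (log2 fold change -1.74 ± 0.072 (SE), adjusted p = 4.2e-43). *Dusp4*, a MAP kinase phosphatase, was at 944.6, 692.7 and 786.5 at 136h and 223.9, 241.8 and 222.4 at 152h (log2 fold change -1.80 ± 0.20 (SE), adjusted p = 2.8e-13). *Frat2*, an inhibitor of GSK3, was at 328.1, 322.7 and 346.4 at 136h and 65.6, 58 and 48.3 at 152h. Groups without overlap were again a condition of choosing these 5 genes. The remaining 10 were *Mef2b*, *Nckap5l*, *Chpf*, *Cd37*, *H2ac6*, *Gpr182*, *Ttc25*, *Dact3*, *Camk2n2* and *Rtn4r*, with log2 fold changes from -2.78 to -1.69. *Mef2b* varied among replicates before the step (125.1, 82.2 and 173.2 at 136h and 18.1, 19.3 and 13.5 at 152h). *H2ac6* belongs to the histone genes whose reads may be shared with near-identical copies.

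**Figure D2:**
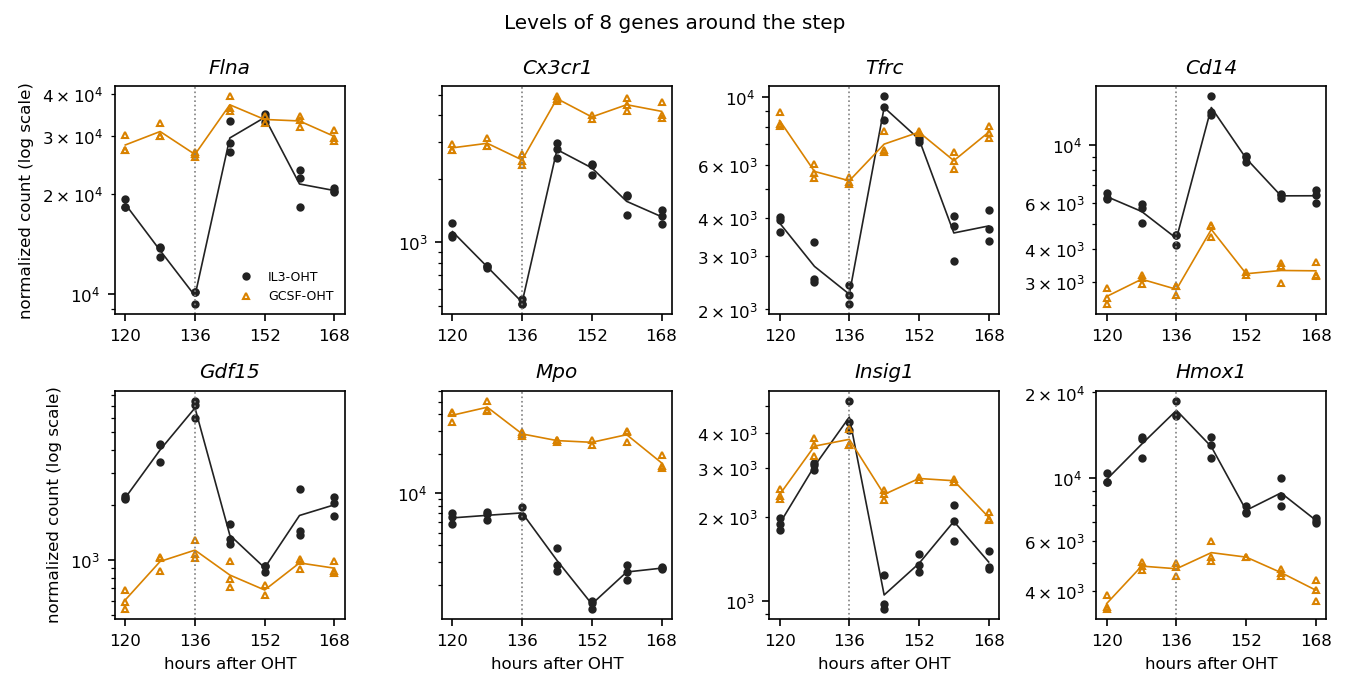
Normalized counts (log scale) of 8 genes from 120h to 168h after OHT in IL3-OHT (filled circles, 1 per library) and GCSF-OHT (open triangles), with lines through the means and a dotted line at the 136h renewal. In IL3-OHT the mean of *Flna* is 13525 at 128h, goes from 9872 at 136h to 34061 at 152h and is 21459 at 160h, and that of *Gdf15* from 6803 to 907.7.

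Fixed gene lists were then counted, and each is read beside the shares of all genes, 9.22% higher and 6.75% lower. Of the monocyte and macrophage markers, 10 of 28 tested members rose and 1 fell (median log2 fold change 0.54). *Vcan*, a proteoglycan of monocytes, was at 3082, 3211 and 3195 at 136h and 9335, 8884 and 9527 at 152h (log2 fold change 1.55 ± 0.10 (SE), adjusted p = 2.6e-26). *Cd14*, the lipopolysaccharide co-receptor, was at 4512, 4139 and 4527 at 136h and 8615, 8980.0 and 9033 at 152h (log2 fold change 1.02 ± 0.057 (SE), adjusted p = 2.1e-32). *Lpl*, lipoprotein lipase, was at 22114, 25108 and 20646 at 136h and 35862, 36067 and 35822 at 152h (log2 fold change 0.67 ± 0.083 (SE), adjusted p = 7.4e-12). *Trem2*, a lipid receptor of macrophages, and *F13a1*, a coagulation factor gene of monocytes, rose by 0.60 and 0.84 on the log2 scale. *Itgam* (7179, 6784 and 7345 at 136h and 7508, 6983 and 6635 at 152h) and *Emilin2* (65762, 61322 and 70249.8 at 136h and 62300.4, 62805 and 62043 at 152h) overlapped between the groups and were not called, while *Ly6c2*, a monocyte surface antigen, had a log2 fold change of -0.37 and did not reach the fold threshold. In bulk samples fewer cells of a type and less RNA per cell cannot be told apart.

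Of the neutrophil granule and membrane genes, 1 of 24 tested members rose and 7 fell (median log2 fold change -0.17). The 4 primary granule genes *Mpo*, *Elane*, *Prtn3* and *Ctsg* all fell. *Elane*, neutrophil elastase, was at 64557, 60586 and 63889 at 136h and 25032, 23664 and 23998 at 152h (log2 fold change -1.38 ± 0.066 (SE), adjusted p = 1.1e-37). *Prtn3*, proteinase 3, was at 34295, 34085 and 35862 at 136h and 20581, 20082 and 19659 at 152h and *Ctsg*, cathepsin G, at 14969.7, 15138 and 14412 at 136h and 8943, 8889 and 8401 at 152h. The receptor gene *Csf3r*, through which GCSF acts, was at 930.6, 941.9 and 922.3 at 136h and 438.8, 402.6 and 417.8 at 152h (log2 fold change -1.15 ± 0.064 (SE), adjusted p = 1.2e-32), and *Ngp*, a secondary granule gene, fell (log2 fold change -0.60 ± 0.075). The calprotectin gene *S100a8* was at 54902, 65692 and 50124 at 136h and 87167, 81390.2 and 82309 at 152h and did not pass the fold threshold (log2 fold change 0.56), *S100a9* overlapped between the groups, and *Lcn2* had a log2 fold change of 0.11. The only member called higher of this list was the formyl peptide receptor gene *Fpr1* (31.9, 34.9 and 33.9 at 136h and 65.6, 95.5 and 64 at 152h).

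Of the Toll-like receptors and adaptors, 9 of 20 tested members rose and 1 fell (median log2 fold change 0.62). *Tlr13*, a sensor of bacterial ribosomal RNA, was at 246.4, 281.6 and 270.4 at 136h and 626.6, 643.2 and 550.3 at 152h (log2 fold change 1.18 ± 0.12 (SE), adjusted p = 1.7e-16), and *Tlr2* at 83, 64.8 and 74.9 at 136h and 169.6, 184.97 and 199.9 at 152h (log2 fold change 1.31 ± 0.14 (SE), adjusted p = 4.9e-15). The adaptor gene *Myd88* and the kinase gene *Irak4* rose by 0.70 and 0.65 on the log2 scale. In contrast, *Irak2* was at 8550.1, 8360.3 and 8448 at 136h and 4181, 4177 and 4123 at 152h (log2 fold change -1.02 ± 0.054 (SE), adjusted p = 3.9e-34), and *Tlr4*, *Traf6* and *Irak1* were not called. Of the interferon-stimulated genes, 10 of 30 tested members rose and 0 fell (median log2 fold change 0.31), and 4 of the 10 called had a mean of 50 or more. *Irf9*, a factor of the interferon-activated complex, was at 172.3, 173.2 and 198.97 at 136h and 275.96, 330.04 and 302.1 at 152h (log2 fold change 0.73 ± 0.11 (SE), adjusted p = 6.8e-09). *Gbp7* and *Ifit2* rose by 0.79 and 0.65 on the log2 scale, while *Isg20*, *Bst2* and *Stat2* had log2 fold changes of -0.39, -0.30 and -0.057 and were not called. Of the antigen presentation genes, 2 of 15 tested members rose and 2 fell (median log2 fold change -0.35). *Tapbp*, which loads peptides on MHC class I, was at 6737, 5995 and 7043 at 136h and 3308, 3456 and 3272 at 152h (log2 fold change -0.98 ± 0.078 (SE), adjusted p = 2.1e-21), and the class I genes *H2-D1*, *H2-K1* and *B2m* stayed within the fold threshold at -0.46, -0.46 and -0.35.

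Of the cholesterol synthesis and uptake genes, 2 of 25 tested members rose and 10 fell (median log2 fold change -0.47). *Srebf2*, which encodes SREBP2, was at 17944, 14535 and 17712 at 136h and 8880.4, 8597 and 8579.7 at 152h (log2 fold change -0.94 ± 0.077 (SE), adjusted p = 1.0e-20). *Msmo1* and *Sqle*, enzymes of the later pathway, fell (log2 fold change -1.22 ± 0.094 and -0.80 ± 0.065). No library at 152h reached the lowest 136h library in these 3 genes, nor in *Insig1*, which was chosen for groups without overlap. This describes genes already called, and the share of all genes without overlap is not given here. *Mvd*, *Fdps* and *Sc5d* had log2 fold changes of -0.57, -0.53 and -0.12 and were not called, and the 2 that rose were *Mvk* and *Ebp* (log2 fold change 0.60 and 0.64), named after their values were seen.

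Among lysosomal hydrolase and proton pump genes, 2 of 45 tested members rose and 9 fell (median log2 fold change -0.20). *Npc1*, which exports cholesterol from the lysosome, was at 6764, 6585 and 7068 at 136h and 3659.8, 3407 and 3685 at 152h (log2 fold change -0.93 ± 0.046 (SE), adjusted p = 4.3e-36). *Gla*, alpha-galactosidase, was at 1566, 1698 and 1509 at 136h and 893.5, 905.5 and 909.6 at 152h (log2 fold change -0.81 ± 0.053 (SE), adjusted p = 3.8e-27), *Mcoln1*, a lysosomal calcium channel, at 2706, 2681 and 2871 at 136h and 1749.6, 1680.4 and 1707 at 152h (log2 fold change -0.68 ± 0.051 (SE), adjusted p = 4.4e-23), and *Neu1*, a sialidase, at 3969, 3558 and 3875 at 136h and 2268, 2325 and 2156 at 152h. *Gusb*, beta-glucuronidase, ran the other way, at 547.6, 540.7 and 531.4 at 136h and 1149, 1303 and 1218 at 152h (log2 fold change 1.18 ± 0.057 (SE), adjusted p = 4.4e-37). Abundant members such as *Ctsd* (log2 fold change -0.36), *Psap*, *Ctsb* and *Lamp1* were not called.

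The promoters of some of these genes hold the sequence CACGTGAC, the core of the motif to which TFEB and its relatives bind at lysosomal genes. It was searched on both strands in the RefSeq promoter windows (GRCm38.p6, 250 bases before to 50 after the start of a gene), where 2.25% of 32851 windows held it. A member was counted when any window of its gene held it, so counts of members and this share of windows are not like for like. Of the 33 tested lysosomal members with a window 9 held it, and of the 6 that fell and had a window 3 did, *Gla*, *Mcoln1* and *Naglu*. The gene *Insig1* held it as well. *Naglu* (log2 fold change -0.60) and the motifs were chosen after the values were seen, and a match is a description of these letters only. Each stretch below is written 5′ to 3′ on the strand of the gene, with the motif or its reverse complement in capitals. These 4 are shown because they fell and hold it.
*Gla* (chrX:134601144-134601251, minus strand): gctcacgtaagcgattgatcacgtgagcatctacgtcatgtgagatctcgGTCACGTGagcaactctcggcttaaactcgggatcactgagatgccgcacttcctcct
*Mcoln1* (chr8:3500396-3500503, plus strand): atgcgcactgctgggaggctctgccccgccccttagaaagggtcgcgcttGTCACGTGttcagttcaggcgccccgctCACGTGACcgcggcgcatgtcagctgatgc
*Naglu* (chr11:101069969-101070076, plus strand): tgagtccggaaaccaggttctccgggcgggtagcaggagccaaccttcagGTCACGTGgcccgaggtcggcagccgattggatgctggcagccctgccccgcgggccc
*Insig1* (chr5:28071259-28071366, plus strand): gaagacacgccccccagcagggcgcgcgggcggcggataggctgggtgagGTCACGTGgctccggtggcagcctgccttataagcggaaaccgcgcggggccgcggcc

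Of the ATF4 amino acid stress genes, 2 of 23 tested members rose and 8 fell (median log2 fold change -0.25). *Ddit3*, a C/EBP-family factor of the stress response, was at 4498, 4281 and 4429 at 136h and 2019.9, 2041 and 1954 at 152h (log2 fold change -1.13 ± 0.065 (SE), adjusted p = 1.1e-31). *Atf4* itself was at 9417, 9358 and 9042 at 136h and 5760.0, 5618 and 5459 at 152h (log2 fold change -0.72 ± 0.054 (SE), adjusted p = 2.9e-23). *Trib3*, a pseudokinase, was at 2902, 2496 and 2858 at 136h and 1452, 1629.6 and 1417 at 152h (log2 fold change -0.87 ± 0.096 (SE), adjusted p = 6.9e-14), and *Asns*, asparagine synthetase, *Cars*, a transfer RNA synthetase, and *Slc3a2*, an amino acid transporter subunit, fell (log2 fold change -0.62 ± 0.064, -0.84 ± 0.051 and -0.78 ± 0.053). The cystine transporter gene *Slc7a11* rose (19.1, 31.1 and 19.9 at 136h and 63.3, 54.4 and 48.3 at 152h). *Psat1*, an enzyme of serine synthesis, missed the fold threshold on the higher side. The letters TGATGNAA, the C/EBP-ATF element at such genes, were found on either strand in 3.97% of the promoter windows. They were in 6 of the 20 tested members with a window, counted by gene as above and so not like for like with that share. Of the 7 that fell and had a window 3 held them, *Trib3*, *Asns* and *Nupr1*, the last named after its value was seen.

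For SREBP the letters TCACNCCAC were in 1.24% of windows and, counted by gene as above, in 1 of 17 cholesterol members with a window, *Hmgcs1*. *Hmgcs1*, an enzyme gene at the head of the pathway, was lower at 152h (log2 fold change -0.74 ± 0.069 (SE), adjusted p = 1.7e-17) and was chosen after its value was seen. Its stretch is shown as the only match among the members, with the element in capitals.
*Hmgcs1* (chr13:119690164-119690271, plus strand): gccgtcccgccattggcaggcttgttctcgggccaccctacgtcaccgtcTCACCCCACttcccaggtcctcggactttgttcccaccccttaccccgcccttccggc

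**Figure D3:**
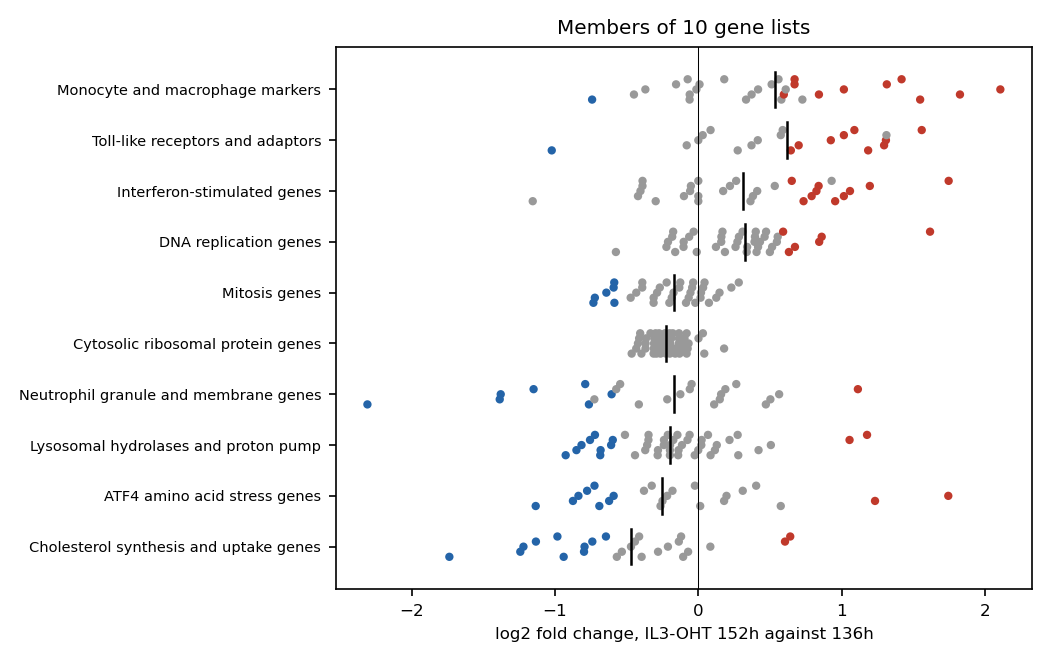
Log2 fold change from 136h to 152h of every tested member of 10 gene lists (1 point per gene, red or blue where called, black bar at the median). Of the cholesterol genes 3 of 25 lie above 0 (median -0.47) and of the Toll-like receptor genes 17 of 20 (median 0.62).

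Of the iron handling genes, 4 of 15 tested members rose and 3 fell (median log2 fold change -0.14). *Tfrc*, the transferrin receptor, was at 2239, 2411 and 2087 at 136h and 7266, 7448 and 7146 at 152h (log2 fold change 1.70 ± 0.088 (SE), adjusted p = 9.2e-35). *Ftl1*, the ferritin light chain, was at 545666, 494404 and 534622 at 136h and 334115, 343938 and 326113 at 152h (log2 fold change -0.65 ± 0.073 (SE), adjusted p = 2.2e-13), and *Hmox1*, heme oxygenase 1, at 18629.5, 16711 and 16552 at 136h and 7969.9, 7526 and 7580.2 at 152h (log2 fold change -1.17 ± 0.10 (SE), adjusted p = 2.2e-18). *Ftl1* has near-identical copies, so its counts are uncertain. *Fth1* was not called (log2 fold change -0.23). The zinc exporter gene *Slc30a1* was at 266.8, 307.7 and 243.4 at 136h and 97.3, 96.7 and 108.9 at 152h (log2 fold change -1.42 ± 0.11 (SE), adjusted p = 6.2e-23) and the zinc importer genes *Slc39a10* and *Slc39a14* rose by 1.32 and 0.99 on the log2 scale. Of the antioxidant and glutathione genes, 4 of 22 tested members rose and 3 fell (median log2 fold change -0.14). *Prdx1*, a peroxiredoxin, was at 536.1, 595.6 and 546.6 at 136h and 1411, 1533 and 1526 at 152h (log2 fold change 1.41 ± 0.093 (SE), adjusted p = 5.8e-27), while *Txnrd1* and *Gstm1* fell (log2 fold change -0.60 ± 0.055 and -0.69 ± 0.067).

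Of the glycolysis enzymes, 0 of 20 tested members rose and 2 fell (median log2 fold change -0.14). *Gpi1*, glucose-6-phosphate isomerase, was at 326087, 284728 and 328886 at 136h and 159263, 152029 and 162331 at 152h (log2 fold change -0.99 ± 0.084 (SE), adjusted p = 8.0e-20), and *Pfkfb3*, which sets the level of a phosphofructokinase activator, at 1145, 1265 and 1201 at 136h and 612.98, 562.2 and 660.3 at 152h. *Gapdh* and *Aldoa* had log2 fold changes of -0.54 and -0.51 and *Pkm* one of 0.01, and none of these 3 was called. Of the hypoxia response genes, 0 of 19 tested members rose and 3 fell (median log2 fold change -0.15). *P4ha1*, a collagen hydroxylase subunit, was at 25884, 25712 and 25013 at 136h and 15274, 13609 and 13654 at 152h, and *Ero1l*, an oxidase of the endoplasmic reticulum, stood at 119425, 128505 and 119311 at 136h and 81744, 73854 and 74703 at 152h. Both genes were already called, and neither overlapped between the groups, which is not set beside the share of all genes. *Vegfa* was not called (log2 fold change -0.46).

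Of the AP-1 and other immediate-early genes, 2 of 19 tested members rose and 3 fell (median log2 fold change 0.23). *Fos* was at 1429.7, 1199 and 1194 at 136h and 2968, 3068 and 2723 at 152h (log2 fold change 1.199 ± 0.12 (SE), adjusted p = 4.4e-16), whereas *Ier5* and *Atf3* fell (log2 fold change -0.69 ± 0.098 and -0.74 ± 0.15), and *Jun*, *Junb* and *Jund* were not called. In the EGR list *Egr2* rose (116.2, 97.2 and 113.5 at 136h and 239.8, 253.9 and 212.2 at 152h) and the corepressor gene *Nab2* fell (6166, 5401 and 6638 at 136h and 3541, 3707 and 3696 at 152h). *Egr1* was at 3224, 2539 and 3243 at 136h and 4209, 4577 and 4024 at 152h, above every 136h library, but missed the fold threshold (log2 fold change 0.52). Of the ERK feedback genes, 2 of 11 tested members rose and 1 fell (median log2 fold change -0.016), and *Dusp6* and *Spred1* rose by 0.65 and 0.66 on the log2 scale while *Dusp4* fell. Among cytokine receptor and STAT5 target genes, 2 of 18 tested members rose and 4 fell (median log2 fold change 0.10). *Il3ra*, the receptor subunit that binds the IL3 in the medium, was at 1176, 973.1 and 1408 at 136h and 707.99, 715.7 and 689.5 at 152h (log2 fold change -0.73 ± 0.13 (SE), adjusted p = 3.4e-07), *Pim3* fell (log2 fold change -0.90 ± 0.094) and *Id1* rose (log2 fold change 0.83 ± 0.063), while *Csf2rb* and *Mcl1* were not called. In the NF-kB list 2 of 16 tested members rose, *Nfkbia* (log2 fold change 0.59) and the weakly counted *Traf1*, and *Relb* (-0.79) and *Nfkbib* (-0.88) fell, and among the chemokines and cytokines the interleukin-1 receptor antagonist gene *Il1rn* rose (399.6, 419.9 and 470.5 at 136h and 1007, 1031 and 975.9 at 152h) while *Ccl3* fell (2893, 2940.4 and 2858 at 136h and 1832, 1819 and 1765 at 152h). *Cebpb*, a myeloid factor, varied among the 136h libraries (15203, 11931 and 18583 at 136h and 9658, 10518 and 9716 at 152h) and fell (log2 fold change -0.59 ± 0.15).

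Of the DNA replication genes, 6 of 40 tested members rose and 0 fell (median log2 fold change 0.32). *Tyms*, thymidylate synthase, was at 39.6, 39.9 and 44.5 at 136h and 117.6, 114.8 and 157.2 at 152h (log2 fold change 1.62 ± 0.10 (SE), adjusted p = 2.2e-28), and *Pola1* and *Pole* rose by 0.84 and 0.67 on the log2 scale. Of the mitosis genes, 0 of 35 tested members rose and 6 fell (median log2 fold change -0.17). *Cenpa*, the centromeric histone, was at 688.04, 651.6 and 578.2 at 136h and 395.8, 394.1 and 361.6 at 152h (log2 fold change -0.73 ± 0.065 (SE), adjusted p = 7.9e-19), and *Pttg1*, *Ube2c* and *Cdc20* fell (log2 fold change -0.64 ± 0.075, -0.59 ± 0.078 and -0.59 ± 0.081). *Mki67* and *Top2a* overlapped between the groups. Of the G1 cyclins and CDK inhibitors, 2 of 20 tested members rose and 3 fell (median log2 fold change -0.21). The CDK inhibitor genes *Cdkn2c* and *Cdkn2d* fell (log2 fold change -0.77 ± 0.10 and -0.64 ± 0.08), while the inhibitor gene *Cdkn1a* was not called. The 2 that rose were *Rbl1* (log2 fold change 0.81 ± 0.085) and the cyclin gene *Ccnd1*.

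None of the 52 cytosolic ribosomal protein genes was called with limma, edgeR or DESeq2. Their median log2 fold change was -0.22, 4 were above 0, and 41 were lower at an unadjusted p under 0.05. The 40 ribosome biogenesis factors had 4 that rose and none that fell (median 0.25), among them *Mrto4* (315.3, 310.2 and 305.5 at 136h and 530.4, 589.96 and 525.6 at 152h). Of 45 nuclear respiratory chain genes, 2 rose, *Atp5g1* and *Cox5b*, and none fell (median 0.028). The endoplasmic reticulum chaperone list had 1 of 20 lower, *Herpud1*, and the heat shock list had *Hspa1a* and *Hspa1b* lower, a near-identical pair whose reads may be split. The remaining lists are read beside the same shares of all genes. Of the chemokine and formyl peptide receptors, 3 of 15 rose and 1 fell. Of the integrins and adhesion molecules, 2 of 20 rose, *Tln1* among them, and 1 fell (*Itgb3*). In the copper and zinc list 2 of 15 rose and 2 fell, and 2 of 25 myeloid transcription factors rose and 2 fell, *Bhlhe41* (log2 fold change -0.91) among them. *Scd1*, the only one of 14 sterol efflux and LXR target genes called, was counted at no more than 2.09 on average.

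Where a list had no call in one direction, some members moved that way at an unadjusted p under 0.05 (limma). These were 10 endoplasmic reticulum chaperone, 3 heat shock, 3 hypoxia, 2 mitosis, 1 glycolysis and 1 sterol efflux genes on the higher side, and 17 respiratory chain, 4 DNA replication, 4 ribosome biogenesis and 2 interferon-stimulated genes on the lower side. edgeR and DESeq2 called none of these lists in that direction either, apart from 1 hypoxia gene called higher by both and 1 DNA replication gene called lower by edgeR. The calls of *Trem2*, *Ngp*, *Fpr1*, *Asns*, *Txnrd1*, *Nfkbia*, *Traf1*, *Cebpb*, *Ube2c*, *Cdc20*, *Mvk*, *Naglu*, *Itgb3* and *Scd1* were lost when some single library was left out.

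**Figure D4:**
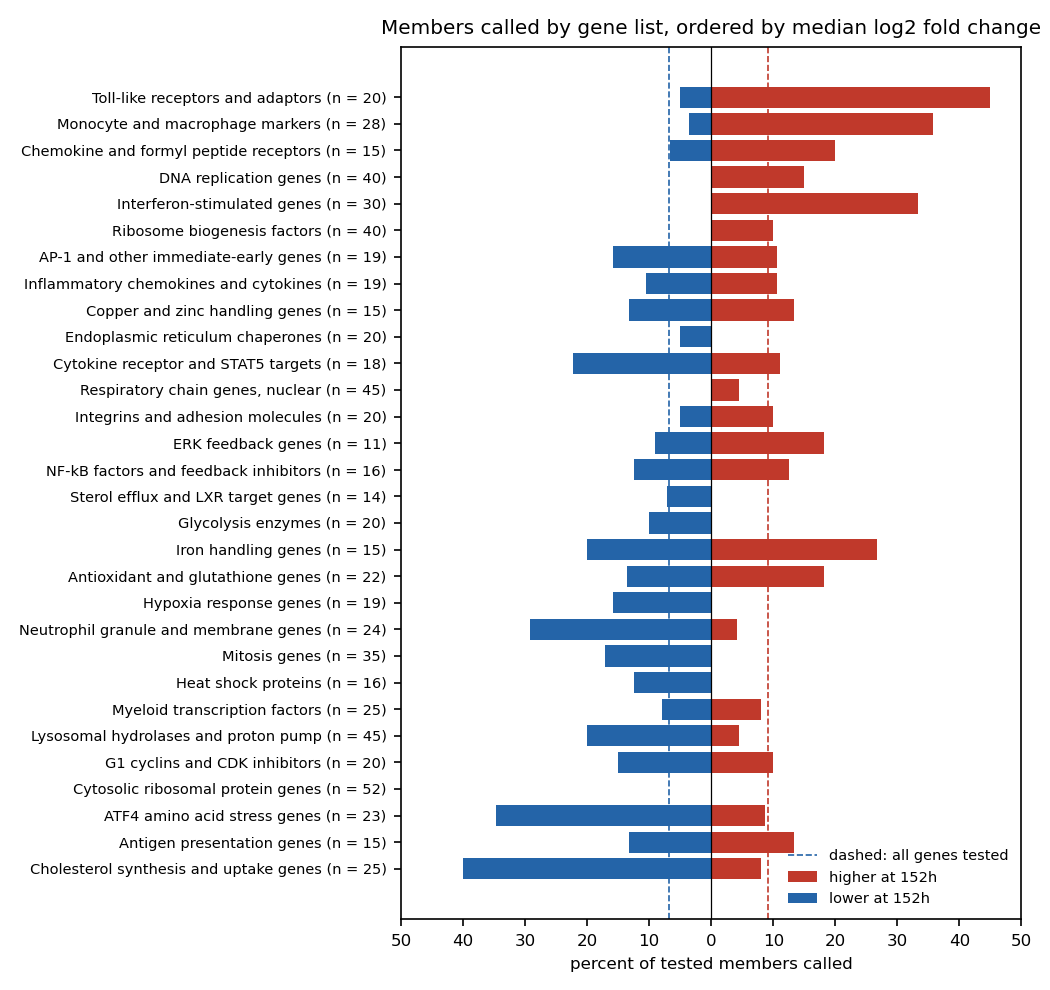
Percent of tested members called higher (right, red) or lower (left, blue) at 152h, by gene list in order of median log2 fold change, with the shares over all tested genes as dashed lines (9.22% and 6.75%). The cholesterol list extends farthest to the left and the Toll-like receptor list farthest to the right.

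The well-detected genes called at 152h differed most from 136h at 144h. The IL3-OHT 144h libraries, which the authors left out and which were collected 8 h after renewal, are described here. They were not in the main fit and entered alternative fits only. Among the 1071 well-detected genes that rose, the median difference from 136h was 0.23 at 128h, 0.87 at 144h, 0.77 at 152h, 0.55 at 160h and 0.58 at 168h on the log2 scale. For the 885 that fell it was -0.18, -0.93, -0.77, -0.48 and -0.55. All these differences share the 136h libraries. Distances between time-point means over all tested genes were 61.8 for 128h and 136h, 101.5 for 136h and 144h, 69.8 for 144h and 152h, 85.2 for the step itself, and 58.3 for 152h and 160h (root of summed squared log2 differences). By the same measure the libraries labelled 144h lay 69.9 from those of 96h, also collected 8 h after a renewal, and those labelled 136h lay 115.5 from them. The 128h libraries lay closer to those labelled 136h than to those labelled 144h (97.4). *Fosb* averaged 223.8 at 136h, 3314 at 144h and 1062 at 152h, and *Cd14* averaged 4393, 13896 and 8876. For *Mpo* the 144h level, 3064, lay between 7063 and 1424, and *Insig1* was lowest at 144h (1051). With the libraries labelled 144h in place of 136h, 1350 genes were called from there to 152h, and of the genes called from 136h to 152h, 99 were higher and 61 lower in both comparisons while 144 that rose and 77 that fell were called the opposite way. Renewal and elapsed time cannot be told apart in this step.

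In a comparison chosen after the values were seen, 16 h after the 88h feeding (104h against 88h) 301 genes were higher (1.73%) and 202 lower (1.16%), 503 in all (2.89%). Of the 1605 genes that rose from 136h to 152h, 178 (11.1%) also rose from 88h to 104h, 59.1% of the genes that rose there, and 4 fell. Of the 1176 that fell, 95 (8.08%) fell there too, 47.03% of the genes that fell, and 5 rose. *Cx3cr1* had a log2 fold change of 1.09 (adjusted p = 3.8e-25) from 88h to 104h, *Mpo* of -1.28 (adjusted p = 1.5e-19) and *Flna* of 0.72 (adjusted p = 1.8e-18), while *Insig1* had -0.27 and was not called. None of the cholesterol genes was called from 88h to 104h with limma, edgeR or DESeq2, and 5 were higher and 8 lower at an unadjusted p under 0.05 (limma). After the 40h renewal (56h against 40h) 48 genes were higher (0.276%) and 279 lower (1.60%), 327 in all (1.88%). There 7 of the 1605 and 56 of the 1176 moved the same way, with 13 and 9 opposite. Of the 25 tested cholesterol genes, 5 were called higher from 40h to 56h and 0 lower, with a median log2 fold change of 0.35.

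Fewer genes were called for the same step in GCSF-OHT cells, where 57 genes (0.327%) were higher and 0.672% of genes were lower at 152h, 0.999% in all. The difference of the steps, IL3 minus GCSF, uses the same IL3 libraries and was called for 2018 genes (11.6%), of which 1255 were above 0 (7.21%) and 763 below (4.38%). Differences between the steps were tested within the one fit. GCSF-OHT 152h had 2 libraries, and both cultures were renewed at 136h but differed in cytokine and OHT dose. *Flna* averaged 26356 ± 394.98 (SD, n = 3) and 33592 ± 995.7 (SD, n = 2) in GCSF-OHT, and its IL3 step exceeded its GCSF step by 1.44 ± 0.091 (SE), adjusted p = 1.2e-26. *Gyg*, glycogenin, fell from 7688 to 2688 in IL3-OHT and averaged 3378 and 3376 in GCSF-OHT (difference -1.51 ± 0.092 (SE), adjusted p = 1.0e-27). *Gadd45a*, a growth arrest gene, was at 5356, 5089.7 and 5124 at 136h and 1670.4, 1767 and 1614 at 152h in IL3-OHT and averaged 2064 and 1884 in GCSF-OHT (difference -1.49 ± 0.10 (SE), adjusted p = 6.7e-24). *Txnip*, an inhibitor of thioredoxin, was at 102304, 107215 and 95490.2 at 136h and 47910.0, 44419.8 and 45504 at 152h in IL3-OHT and averaged 25173 and 26299 in GCSF-OHT. The difference was 1.07 for *Vim*, vimentin, and 1.05 for *Ywhab*, a 14-3-3 protein, and ran from -1.12 to -0.80 for *Nub1*, *Ern1*, *Ube2g2* and *Srrm1* on the log2 scale. *Mpo* fell in IL3-OHT and was called in the difference (-2.09 ± 0.16 (SE), adjusted p = 4.9e-22). *Cx3cr1* rose in both, averaging 2454 and 3921 in GCSF-OHT, and the difference was 1.43 ± 0.11 (SE), adjusted p = 7.9e-22. Of the 25 cholesterol genes the difference was called below 0 for 7 and above 0 for 1, with a median difference of -0.11. The cholesterol list also lay below 0 in GCSF-OHT (median log2 fold change -0.33), where 0 members were called higher and 1 lower. Of the 24 tested neutrophil granule and membrane genes the difference was called below 0 for 7.

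**Figure D5:**
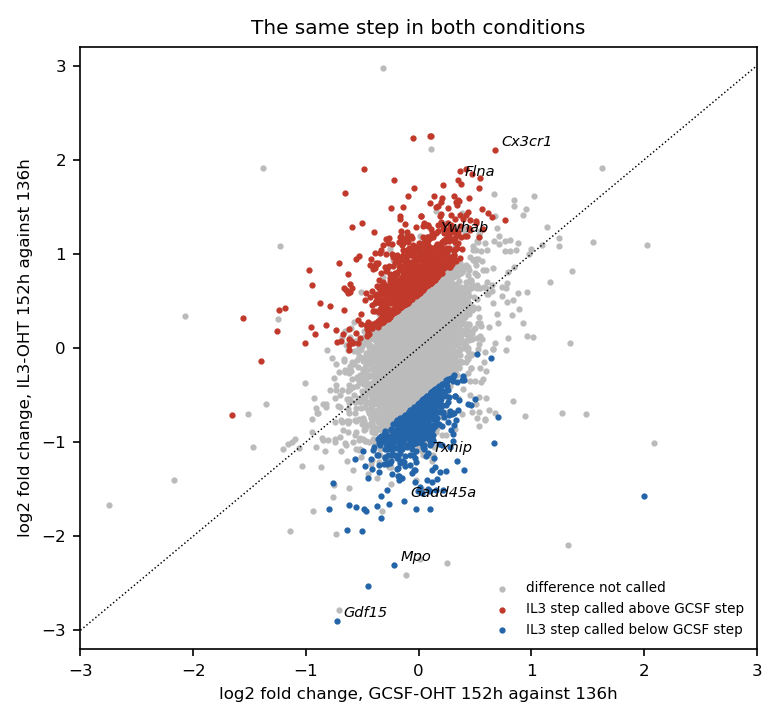
Log2 fold change from 136h to 152h in IL3-OHT (vertical axis) against GCSF-OHT (horizontal axis), 1 point per gene with a mean of 50 or more in the 6 IL3 libraries; the dotted line marks equal steps. Grey marks genes whose difference between the steps is not called, which are most of the 10546 plotted, red marks an IL3 step called above the GCSF step and blue one called below it, and 9 genes lie outside the axes.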

How the data were processed

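PolyA RNA-Seq reads of 165 PUER cell libraries were assigned to GRCm38 transcripts with Salmon and normalized with DESeq2 size factors by the authors, who deposited normalized counts per gene. The transcript-to-gene step is not given in the sources used here. Every deposited value (unit signal) was a whole multiple of what 1 read is worth, within a relative tolerance of 1e-06, so whole reads were recovered for count tests as alternatives. The deposited signal, as log2(normalized count + 1), was fitted with limma 3.58.1 (trend) over 159 libraries, with 1 mean per condition and time point and with the 96h and 144h IL3 libraries set aside, as the authors did. The 17414 genes that reached 5 normalized counts in some library were kept. Fold changes are on this scale, which understates the change of low genes. P-values were adjusted by Benjamini-Hochberg over all genes, and calls needed an adjusted p below 0.05 with a log2 fold change beyond 0.58 in either direction. Replicates came from 1 plate per time point, so p-values measure the spread between wells, pooled over all conditions and time points in the fit. Plate and time point cannot be told apart.

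Named genes were the 15 largest called rises and falls without overlap and with a mean of at least 50 in the higher group, up to 6 called and 4 uncalled members of each list (some members are not reported here), and the 10 genes with the smallest adjusted p for the difference between the steps. Genes and lists were chosen with earlier results of these data known. The script was tested on simulated data, where unchanged genes with a mean under 10 were called more often than those at higher levels, so calls are also given by level. edgeR 4.0.16, DESeq2 1.42.0, scaling, filters, pseudocounts, each library left out and a replicate block were tried.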

Additional observations from a re-analysis of the deposited data

Results flagged for a closer look

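The difference between the steps of the IL3-OHT and GCSF-OHT cells was called for 2018 genes in a test of the difference itself (limma, adjusted p under 0.05, absolute log2 difference over 0.58). For the 10 genes named by the rule the difference, IL3 minus GCSF on the log2 scale, was -1.51 for *Gyg*, 1.05 for *Ywhab*, -1.08 for *Nub1*, 1.44 for *Flna*, -1.21 for *Txnip*, -1.49 for *Gadd45a*, -1.12 for *Ern1*, -1.01 for *Ube2g2*, 1.07 for *Vim* and -0.80 for *Srrm1*. Groups of 3 or 2 libraries were too small for a search for samples far from the others.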

How the results depend on the processing

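The number of genes called for the step, 2781, ran from 2268 with DESeq2 to 2921 without a filter on low values, apart from genes with a mean of at least 50 in the libraries compared (1974, an alternative chosen after seeing the data) and the replaced time point below. edgeR called 2632 and a fit of only the groups compared 2558. With each library left out in turn it ran from 2597 to 2781, and for the difference between the steps from 1834 to 2055. Upper-quartile scaling called 1821 higher and 1017 lower. With the replicate number as a block, in a fit of only the groups compared, 2560 genes were called for the step and 1765 for the difference. The numbers name libraries and do not pair them, since deviations of same-numbered libraries correlated at 0.0031, -0.014 and 0.0068.

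With the libraries labelled 144h in place of 136h, 1350 genes were called, 663 higher and 687 lower, of which 99 were higher and 61 lower in both comparisons, and the difference between the steps was called for 807 genes, 417 above 0 and 390 below. The cause was not tested, and this comparison asks what changed from 144h to 152h. Changes of sign are listed at any size, so some genes below were called the opposite way, such as *Fosb*, and others lay near 0 and were not called, such as *Dact3*, *Ddit3* and *Dusp4*. Log2 values then changed sign, in the step, for *Actb* -0.26, *Adam1a* -0.68, *Anxa1* -0.18, *Atp1b2* -0.90, *Cars* 0.28, *Cd14* -0.64, *Cdc20* 0.16, *Cdkn2c* 0.73, *Cdkn2d* 0.52, *Cenpa* 0.29, *Cox5b* -0.058, *Cx3cr1* -0.29, *Dact3* 0.0091, *Ddit3* 0.013, *Dnhd1* -0.63, *Dusp4* 0.014, *Dusp6* -0.31, *Egr2* -1.003, *Ern1* 0.13, *Ero1l* 0.53, *Esr1* -0.84, *Fos* -0.91, *Fosb* -1.62, *Fpr1* -0.44, *Frat2* 0.43, *Gpi1* 0.49, *Gusb* -0.12, *Gyg* 0.39, *Hmgcs1* 0.34, *Id1* -0.23, *Il1rn* -0.39, *Insig1* 0.38, *Irak2* 0.088, *Irf9* -0.25, *Itgb3* 0.71, *Mcoln1* 0.45, *Mrto4* -0.57, *Msmo1* 0.61, *Myd88* -0.31, *Naglu* 0.32, *Nfkbia* -0.41, *Nub1* 0.50, *Nup210l* -0.25, *Nupr1* 0.43, *P4ha1* 0.32, *Pola1* -0.54, *Pole* -0.29, *Prdx1* -0.42, *Prtn3* 0.20, *Pttg1* 0.18, *Rgs14* -0.64, *Sema3c* -0.89, *Slc39a10* -0.25, *Slc39a14* -0.41, *Slc7a11* -1.56, *Spred1* -0.11, *Sqle* 0.40, *Srebf2* 0.49, *Srrm1* 0.25, *Tfrc* -0.34, *Tln1* -0.018, *Tlr13* -0.27, *Tlr2* -0.41, *Ttc25* 0.22, *Txnip* 0.58, *Tyms* -0.26, *Ube2c* 0.12, *Vwf* -0.32 and *Ywhab* -0.30, and in the difference between the steps for *Gyg* 0.29, *Ywhab* -0.21, *Nub1* 0.46, *Txnip* 0.52, *Ern1* 0.19 and *Srrm1* 0.18.

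Single-gene calls near the threshold were lost for *Asns* (-0.58), *Cdc20* (-0.55), *Commd1b* (2.19), *Scd1* (-0.56), *Traf1* (0.96), *Trem2* (0.57) and *Txnrd1* (-0.55) without IL3-OHT 136h replicate 1, for *Commd1b* (2.43), *Mvk* (0.52), *Nfkbia* (0.53), *Trem2* (0.52) and *Ube2c* (-0.58) without IL3-OHT 136h replicate 2, for *Cdc20* (-0.51), *Cebpb* (-0.44), *Naglu* (-0.49), *Ngp* (-0.57), *Scd1* (-1.31), *Traf1* (1.30) and *Ube2c* (-0.57) without IL3-OHT 136h replicate 3, for *Cdc20* (-0.50), *Cebpb* (-0.57), *Commd1b* (2.43), *Itgb3* (-0.74), *Scd1* (-1.24) and *Ube2c* (-0.58) without IL3-OHT 152h replicate 1, for *Commd1b* (2.32), *Fpr1* (0.93), *Scd1* (-1.24), *Traf1* (0.74) and *Trem2* (0.56) without IL3-OHT 152h replicate 2 and for *Cebpb* (-0.57), *Mvk* (0.57), *Naglu* (-0.58), *Nfkbia* (0.57), *Ngp* (-0.55), *Scd1* (-1.24), *Trem2* (0.57), *Txnrd1* (-0.55) and *Ube2c* (-0.52) without IL3-OHT 152h replicate 3. They were also lost for *Traf1* (1.57) and *Ube2c* (-0.58) with the DESeq2 Wald test on recovered reads, for *Scd1* (-4.16) with the edgeR quasi-likelihood test on recovered reads, for *Commd1b* (2.51), *Scd1* (-1.24) and *Traf1* (1.25) with no filter on low values, for *Scd1* (-1.24) and *Traf1* (1.25) with only the groups compared, for *Commd1b* (2.58), *Fpr1* (1.12), *Scd1* (-1.74) and *Traf1* (1.33) with pseudocount 0.5, for *Scd1* (-0.44) and *Ube2c* (-0.58) with pseudocount 5, for *Scd1* (-1.24) and *Traf1* (1.25) with replicate block, only the groups compared and for *Asns* (-0.58), *Cdc20* (-0.54), *Cebpb* (-0.54), *Herpud1* (-0.58), *Naglu* (-0.55), *Ngp* (-0.56), *Txnrd1* (-0.56) and *Ube2c* (-0.54) with upper-quartile scaling. Below a mean of 10, 124 of 429 calls were also made with the 6 libraries alone, and the part of depth in this was not tested.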

Other observations

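Genes outside the fixed lists, picked after their values were seen, moved as follows. *Actb*, the cytoplasmic beta-actin gene, was at 40976, 39309.5 and 43627 at 136h and 89584, 91774 and 91509.5 at 152h (log2 fold change 1.14 ± 0.054 (SE), adjusted p = 2.1e-38), and *Anxa1*, annexin A1, was at 1561, 1699 and 1479 at 136h and 5166, 5370.1 and 5368 at 152h (log2 fold change 1.75 ± 0.078 (SE), adjusted p = 1.7e-40). No 136h library of either gene reached a 152h library, which describes 2 picked genes and is not set beside the share of all genes. Among mitochondrially encoded genes, the complex I subunit gene *mt-Nd4* was at 10494, 11926 and 9290.5 at 136h and 29448, 24937 and 30255 at 152h (log2 fold change 1.42 ± 0.11 (SE), adjusted p = 1.8e-21), whereas the cytochrome oxidase subunit gene *mt-Co1* overlapped between the groups (log2 fold change 0.053). Nuclear copies of mitochondrial sequence may share such reads.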
